A study of Zygosaccharomyces bailii with 18 samples.

Results

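The genes described here are the *Zygosaccharomyces bailii* homologues of *Saccharomyces cerevisiae* GLK1, TPI1, PGK1, ADH1 and ADH3, which encode enzymes of glycolysis and alcoholic fermentation. They were selected by homologue name, and every ORF given one of the 5 names in the study's supplementary tables was taken, which gave 6 ORFs (ADH1 is the name of 2 of them) of the 1701 ORFs listed in at least 1 deposited table. RNA of 18 cultures of the prototrophic strain IST302 in mineral medium with glucose at pH 4.0 was profiled with a 3′ tag method (QuantSeq), in 6 groups of 3 libraries. The Zbhaa1∆ deletion mutant, which lacks the homologue of the transcription factor Haa1, and its parental strain were each exposed to 140 mM acetic acid, exposed to 0.08 mM copper (as CuSO4), or left unstressed. Stressed cells were harvested after 1 hour of exposure and unstressed cells when the stress was added, so that a comparison with unstressed cells also holds 1 hour of growth, and the 2 cannot be told apart. The deposited data are 6 tables, each comparing 2 groups, and an ORF is listed only where its fold change is 1.5 or more (0.58 on the log2 scale) and its edgeR FDR, the p-value adjusted over all genes tested, is under 0.05. Each table gives the log2 fold change, the average level over both groups as log2 CPM (read counts scaled to the size of the library) and the FDR.

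No values of single libraries and no depths of single libraries were analysed here, so that neither a replicate SD nor a counting interval can be given. As an error, the largest SE that the FDR allows is given with each fold change, obtained by treating the FDR as the p of a two-sided normal test. An FDR is never below its p, so that this is an approximate upper limit. The study's supplementary tables also print unadjusted p-values of listed ORFs, which were not used here. A limit from those p-values would be no wider, so that the errors given here may be too wide. Where an ORF is not in a table, it failed the thresholds or the authors' filter on low counts, and its fold change there is unknown. The listing itself put the members into the supplementary tables, so that their fold changes in the strain comparisons and in the parental stress comparisons are a description, with no test of their own. Nearest to the thresholds were PGK1, with a log2 fold change of -0.61 between the acid-treated strains, and ADH1 (ZBIST_0943), with an FDR of 0.0470 in copper-treated parental cells. The values of ORFs just outside the thresholds were not analysed here. A CPM value is a share of its library, so that more mRNA of a gene and less mRNA of other genes cannot be told apart.

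The captions of the study's supplementary tables describe both strain comparisons under stress in another way, as stressed Zbhaa1∆ cells set against unstressed cells. The sample labels attach the stressed libraries of both strains to these tables, and they are read here as Zbhaa1∆ against the parental strain under the same stress. The study's own text uses the same contrast where it selects the genes that depend on the Haa1 homologue. Where it reports the response of the mutant, however, its text describes the same lists as stressed against unstressed cells, as the captions do. The levels allow a check of this reading. In the copper table, the level of the second group lay a median of 0.03 and at most 0.15 log2 CPM away from the level that the parental table gives for copper-treated cells, over 105 shared ORFs. From unstressed Zbhaa1∆ cells, as read from the acid table of the mutant, it differed by a median of 0.34 and up to 2.68 log2 CPM over 81 shared ORFs. In the acid table, the second group lay a median of 0.05 and at most 0.06 log2 CPM away from the parental strain in acetic acid over 19 shared ORFs, and a median of 0.61 and up to 1.12 away from unstressed Zbhaa1∆ cells over 8. The second group thus had the levels of stressed parental cells in both tables.

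In yeasts growing on glucose, glycolysis splits the sugar into pyruvate and yields ATP, and alcoholic fermentation turns pyruvate into ethanol, which regenerates the NAD+ that glycolysis needs. In *S. cerevisiae*, glucokinase (Glk1) phosphorylates glucose as it enters the pathway, triose phosphate isomerase (Tpi1) interconverts the triose phosphates, and phosphoglycerate kinase (Pgk1) forms ATP further down. Adh1 is the main cytosolic alcohol dehydrogenase, which reduces acetaldehyde to ethanol, and Adh3 is its mitochondrial isozyme, which takes part in moving reducing equivalents out of the mitochondrion. Glycolytic mRNAs are among the most abundant of a yeast cell on glucose.

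The 6 ORFs had 10 listed values among the 36 possible ones, all from 3 of the 6 tables. Of the 6, TPI1, PGK1, ADH3 and ADH1 (ZBIST_0943) were listed in 2 tables each and the other 2 (GLK1 and ADH1 ZBIST_0965) in 1 table. Absolute log2 fold changes ran from 0.61 to 1.55, with SE limits between 0.27 and 0.50.

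Between the acid-treated strains, the 3 glycolytic members were lower in Zbhaa1∆, and none of the fermentation members was listed. Of the 6 ORFs, 3 were lower and 0 were higher. Of the 5141 annotated protein-coding ORFs, 1.09% were listed between these groups (1.07% lower, 0.0195% higher), and since the rule drew on this table, nothing further is read from the count. The implied level of a group, as used below, is the log2 or linear CPM that follows from the fold change and the average of the 2 groups.

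GLK1 (ZBIST_4323) had an implied level of 40.6 CPM in acid-treated Zbhaa1∆ cells, against 77.7 CPM in acid-treated parental cells. Its log2 fold change was -0.93 (SE limit 0.27, edgeR FDR = 4.36e-04). It was the only member of the 3 with an FDR under 0.01 in this comparison, and it was listed in no other table. TPI1 (ZBIST_2833) had 570 CPM in acid-treated Zbhaa1∆ cells, against 1207 CPM in acid-treated parental cells. The log2 fold change of TPI1 was the largest of the 3 in size, at -1.08, but also had the widest error (SE limit 0.50, edgeR FDR = 0.0315). PGK1 (ZBIST_3423) had 871 CPM in acid-treated Zbhaa1∆ cells, against 1333 CPM in acid-treated parental cells. Its log2 fold change of -0.61 (SE limit 0.28, edgeR FDR = 0.0304) was the smallest in size of the 55 lower ORFs of the table. Any 2 of these 3 log2 fold changes differ by less than the sum of their SE limits.

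TPI1 and PGK1, but not GLK1, were among the most abundant mRNAs of this table, while their changes were below its median in size. PGK1 had the highest average level of the 56 listed ORFs, at 10.11 log2 CPM, and TPI1 the third highest, at 9.80. GLK1 stood 30th, at 5.89, close to the median of 5.97 log2 CPM over all listed ORFs. The median log2 fold change was -0.93 over the 3 members and -1.16 over all lower ORFs of the table. Reads of a 3′ tag method come from the end of each transcript, so that these levels were not divided by gene length.

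**Figure D1:**
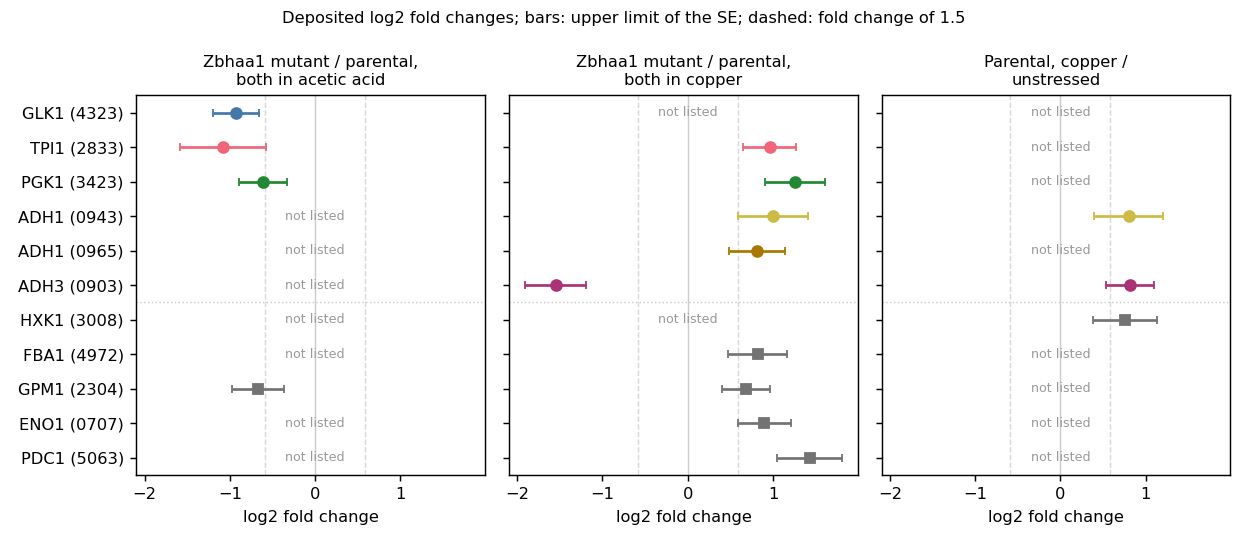
Log2 fold changes (x axis) of the 6 ORFs (circles, coloured) and of the other 5 ORFs of the glycolysis and fermentation list (grey squares) in the 3 tables that list any of them; bars are the upper limit of the SE and dashed lines mark a fold change of 1.5. TPI1 and PGK1 lie left of zero in acetic acid (-1.08 and -0.61) and right of zero in copper (0.96 and 1.26), and ADH3 is the 1 ORF below zero in copper (-1.55).

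Between the copper-treated strains the direction was the other way for TPI1 and PGK1, and GLK1 was not listed. Of the 6 ORFs, 4 were higher in Zbhaa1∆, 1 was lower and 1 was unlisted. Of the annotated protein-coding ORFs, 25.3% were listed between these groups (12.9% higher, 12.4% lower), and these calls too were used by the rule. The median log2 fold change over the 5 listed members was 0.96, beside 0.60 over all listed ORFs and 0.88 over the higher ones.

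TPI1 had an implied level of 2105 CPM in copper-treated Zbhaa1∆ cells, against 1081 CPM in copper-treated parental cells. Its log2 fold change was 0.96 (SE limit 0.31, edgeR FDR = 0.00194). PGK1 had 4513 CPM in copper-treated Zbhaa1∆ cells, against 1880 CPM in copper-treated parental cells. The log2 fold change of PGK1, 1.26 (SE limit 0.35, edgeR FDR = 3.66e-04), was the largest increase among the members. It ranked 137th among the 663 higher ORFs, and that of TPI1 ranked 291st. By average level, PGK1 stood 41st and TPI1 90th of the 1301 listed ORFs.

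Set side by side, the strain differences of TPI1 and PGK1 had opposite signs under the 2 stresses, in comparisons that share no library. By the methods, cells of each strain were grown and then re-inoculated into a flask per condition, so that the 2 comparisons may share precultures. As shares of the library, the TPI1 and PGK1 levels of the copper-treated mutant were above those of its parental strain under the same stress. Those of the acid-treated mutant were below them. The parental levels of TPI1 were close in both tables, at 10.24 log2 CPM in acetic acid and 10.08 in copper, whereas those of Zbhaa1∆ were 9.16 in acetic acid and 11.04 in copper. For PGK1 the Zbhaa1∆ levels were 9.77 log2 CPM in acetic acid and 12.14 in copper, and the parental levels were 10.38 and 10.88 log2 CPM under the same stresses. With an FDR below 0.01, both lost their listing in acetic acid and kept it in copper. With a fold change above 2, TPI1 was listed in acetic acid alone and PGK1 in copper alone, so that neither kept both calls under either stricter threshold. The tables were normalized separately, so that levels of 2 tables are not tested against each other. The level of 1 group read from 2 tables differed by medians of -0.14 to 0.05 log2 CPM over the ORFs that the tables share.

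**Figure D2:**
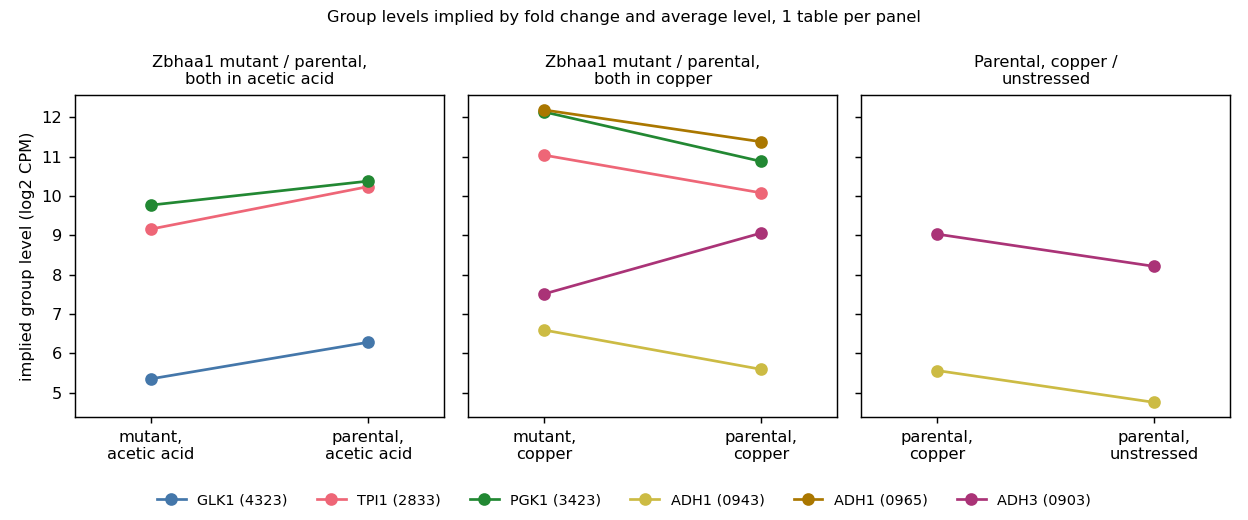
Implied group levels (y axis, log2 CPM) of the 6 ORFs in the 3 tables that list them, with 1 line per ORF joining the 2 groups of a table. TPI1 and PGK1 in Zbhaa1∆ lie under the parental level in acetic acid (9.16 against 10.24 and 9.77 against 10.38) and over it in copper (11.04 against 10.08 and 12.14 against 10.88).

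In all, 30 ORFs were listed in both strain comparisons, which is 53.6% of the acid list and 2.31% of the copper list. Of these, 13 were lower in acid-treated and higher in copper-treated Zbhaa1∆ cells, 16 were lower under both stresses, and 1 was higher under both. TPI1 and PGK1 belong to the 13, together with GPM1, the homologue of phosphoglycerate mutase, the next enzyme after Pgk1. The 13 also held the heat shock protein genes HSP26 (ZBIST_0079 and ZBIST_3442), HSP30, HSP42, HSP78 and HSP104 and the chaperone gene SSA3. Each of these had a log2 fold change of 1.65 (HSP30) or more in copper. The log2 fold changes of the 13 in copper ran from 0.68 for GPM1 to 4.54 for the small heat shock protein gene HSP26 (ZBIST_3442), with a median of 2.13. TPI1 and PGK1 thus lay below that median. The 3 glycolytic ORFs were the only ones of the 13 with an average level above 9 log2 CPM in the acid table, where 4 of the 56 listed ORFs had such a level. In the copper table SSA3 (10.55) and HSP104 (9.57) had such levels too, beside 11.64, 10.64 and 10.35 log2 CPM for PGK1, TPI1 and GPM1.

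**Figure D3:**
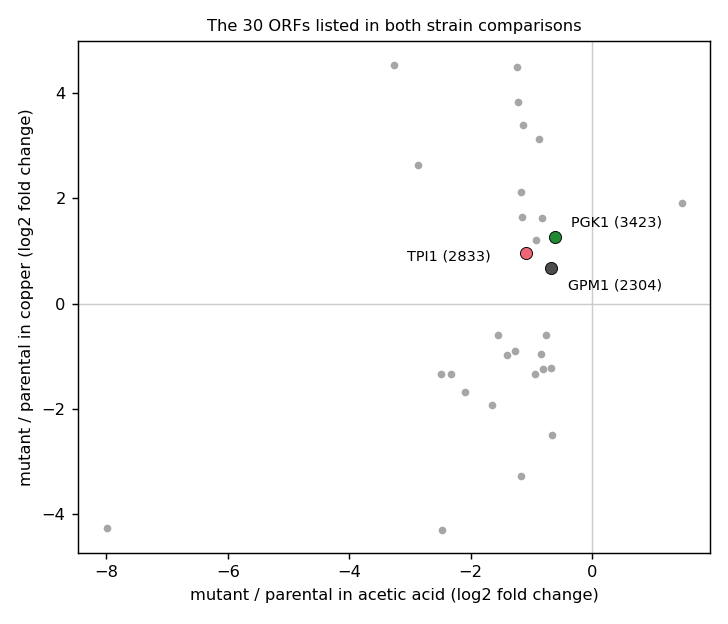
Log2 fold changes of Zbhaa1∆ against the parental strain in acetic acid (x axis) and in copper (y axis) for the 30 ORFs listed in both tables, each point being 1 ORF. TPI1, PGK1 and GPM1 are among the 13 ORFs of the upper left quadrant, at 0.96, 1.26 and 0.68 on the copper axis, below the median of 2.13.

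Both ADH1 homologues were higher in copper-treated Zbhaa1∆ cells than in copper-treated parental cells, from very different levels. ZBIST_0965 had an implied level of 4671 CPM in copper-treated Zbhaa1∆ cells, against 2663 CPM in copper-treated parental cells. Its log2 fold change was 0.81 (SE limit 0.33, edgeR FDR = 0.0139). At an average of 11.84 log2 CPM it stood 34th of the 1301 listed ORFs and was the most abundant member.

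ZBIST_0943 had only 96.4 CPM in copper-treated Zbhaa1∆ cells, against 48.0 CPM in copper-treated parental cells, a 2.01-fold higher level (SE limit 0.41 on the log2 scale, edgeR FDR = 0.0155). The mRNA of ZBIST_0965 was thus 48.5-fold that of ZBIST_0943 in copper-treated Zbhaa1∆ cells and 55.5-fold in copper-treated parental cells. The log2 fold changes of the pair between strains differed by less than either SE limit. The 2 ORFs are 1053 and 1005 bases long. Whether reads could be shared between these copies was not tested, and the treatment of reads with several matches is not given in the sources used here.

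In the parental strain, copper against unstressed cells, 2 of the 6 ORFs were higher and 0 were lower, both of them alcohol dehydrogenase genes. Of the annotated protein-coding ORFs, 3.7% were listed here (2.35% higher, 1.34% lower), and nothing is read from the count, since the rule used it. ZBIST_0943 had an implied level of 47.1 CPM in copper-treated parental cells, against 26.9 CPM in unstressed parental cells. The log2 fold change was 0.80 (SE limit 0.41, edgeR FDR = 0.0470). The more abundant ADH1 homologue, ZBIST_0965, was not listed in this table, nor was any glycolytic member. The level of ZBIST_0943 in copper-treated parental cells was 5.56 log2 CPM from this table and 5.59 from the strain comparison.

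ADH3 (ZBIST_0903) was the 1 member that was lower in copper-treated Zbhaa1∆ cells. It had an implied level of 183 CPM in copper-treated Zbhaa1∆ cells, against 534 CPM in copper-treated parental cells. Its log2 fold change of -1.55 (SE limit 0.36, edgeR FDR = 1.51e-05) was the largest in size and had the lowest FDR of all member values. It ranked 91st in size among the 638 lower ORFs of the table.

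In the parental strain, ADH3 had 522 CPM in copper-treated cells, against 296 CPM in unstressed cells. The log2 fold change was 0.82 (SE limit 0.28, edgeR FDR = 0.00292). Both copper comparisons use the copper-treated parental libraries, on opposite sides, so that an error in those libraries enters both values. For the same reason the sum of the 2 log2 fold changes compares copper-treated Zbhaa1∆ cells with unstressed parental cells.

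This sum was -0.73 for ADH3 (SE limit 0.63), so that the level in the copper-treated mutant was below that of unstressed parental cells by little more than the limit. For ADH1 (ZBIST_0943) the sum was 1.81 (SE limit 0.82), a 3.51-fold higher level in copper-treated Zbhaa1∆ cells than in unstressed parental cells. The SE limit of a sum is that of both fold changes added. The error of the shared copper-treated parental libraries enters the 2 fold changes with opposite signs and largely cancels in their sum. The added limit counts it in both, so that it is wider than the error of the sum. The fold changes of these 2 alcohol dehydrogenase genes thus had the same sign in the parental strain in copper (0.82 and 0.80) and opposite signs between the strains in copper, where ADH3 was 2.92-fold lower and ADH1 (ZBIST_0943) 2.01-fold higher in Zbhaa1∆. A comparison of copper-treated with unstressed mutant cells, which the captions and part of the study's text name, was not analysed here. The levels of the copper table are those of the 2 strains in copper.

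**Figure D4:**
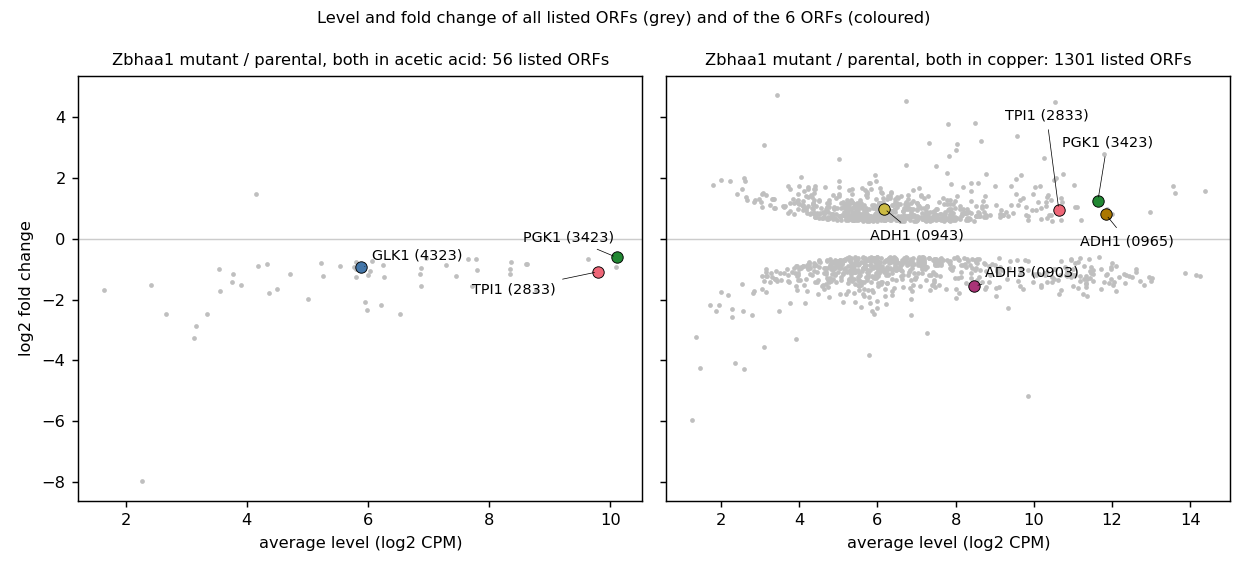
Average level (x axis, log2 CPM) and log2 fold change (y axis) of every listed ORF (grey, 1 point each) in the strain comparisons in acetic acid (56 ORFs, left) and in copper (1301 ORFs, right), with the listed members in colour. PGK1 and TPI1 lie at the high end of the level axis in both panels (10.11 and 9.80 log2 CPM in acetic acid, 11.64 and 10.64 in copper), and ADH1 (ZBIST_0943) near its middle (6.17).

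None of the 6 ORFs was listed in the other 3 tables. Acid-treated against unstressed parental cells gave 0 of 6, where 5.78% of annotated protein-coding ORFs were listed (1.28% higher, 4.49% lower). Acid-treated against unstressed Zbhaa1∆ cells gave 0 of 6, where 5.21% were listed (1.23% higher, 3.99% lower), and the groups of that table are known from its name alone. Unstressed Zbhaa1∆ against unstressed parental cells gave 0 of 6, where 0.272% were listed (0.0389% higher, 0.233% lower). The last 2 of these tables did not enter the selection of the members. Unadjusted p-values of unlisted ORFs were not analysed here, so that these zeros show only that the authors' edgeR thresholds were not passed. In particular, TPI1, PGK1 and GLK1 were listed as lower in acid-treated Zbhaa1∆ than in acid-treated parental cells without being listed for the acid response of either strain.

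The wider list of glycolysis and fermentation enzymes held 26 names, of which 10 had an ORF in the supplementary tables (11 ORFs, 6 of them the members). The other 16 names, such as those of the glyceraldehyde-3-phosphate dehydrogenases and pyruvate kinase, matched no ORF there, and their homologues are not described here. An ORF has a name only because a supplementary table lists it, so that the 11 were called in at least 1 comparison by construction and their counts are a description. Between the acid-treated strains, 1.07% of annotated protein-coding ORFs were lower in Zbhaa1∆ and 0.0195% higher. Of the 11 ORFs, 4 were lower there, 0 higher, and 7 unlisted. The one that is no member was GPM1 (ZBIST_2304), with 612 CPM in acid-treated Zbhaa1∆ cells, against 972 CPM in acid-treated parental cells (log2 fold change -0.67, SE limit 0.30). GPM1 had the fourth highest average level of that table, next to TPI1.

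Between the copper-treated strains, ADH3 was the 1 ORF of the 11 that was lower, 8 were higher, and GLK1 and HXK1 were unlisted, where 12.9% of annotated protein-coding ORFs were higher and 12.4% lower. Of the 5 ORFs that are no members, 4 were higher. ENO1 (ZBIST_0707), the enolase gene, had 10454 CPM in copper-treated Zbhaa1∆ cells, against 5604 CPM in copper-treated parental cells, and stood 9th by level of the 1301 listed ORFs. FBA1 (ZBIST_4972), the aldolase gene, had 5218 CPM in copper-treated Zbhaa1∆ cells, against 2956 CPM in copper-treated parental cells. Their log2 fold changes were 0.90 and 0.82, within the range of TPI1 and the ADH1 homologues. PDC1 (ZBIST_5063), a pyruvate decarboxylase gene, had the largest increase of the list, at 1.43 (SE limit 0.38), from the lower levels of 202 CPM in copper-treated Zbhaa1∆ cells against 74.9 CPM in copper-treated parental cells.

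In copper-treated against unstressed parental cells, 2.35% of annotated protein-coding ORFs were higher and 1.34% lower. Of the 11 ORFs, 3 were higher there, 0 lower, and 8 unlisted. Beside ADH3 and ADH1 (ZBIST_0943) this was HXK1 (ZBIST_3008), a hexokinase gene, with 30.3 CPM in copper-treated parental cells and 17.9 CPM in unstressed parental cells (log2 fold change 0.76, SE limit 0.38, edgeR FDR = 0.0470). None of the 11 ORFs was listed for the acid response of either strain or between the unstressed strains.

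Of the genes that regulate the pathway, 3 had an ORF in the tables, and all were listed in a comparison with unstressed cells. They too have a name only because they were listed, so that nothing is read from this count. TYE7 encodes in *S. cerevisiae* a transcription factor of glycolytic genes. Its homologue (ZBIST_1548) was lower in copper-treated than in unstressed parental cells, at -1.09 (SE limit 0.30). In that table ADH3 and ADH1 (ZBIST_0943) were higher and ADH1 (ZBIST_0965) was not listed. The TYE7 homologue was also lower in acid-treated than in unstressed Zbhaa1∆ cells, at -1.22 (SE limit 0.22), and was not listed between strains. PFK26 and PFK27 encode kinases that make fructose-2,6-bisphosphate, an activator of phosphofructokinase. Both were lower in acetic acid in each strain, where no enzyme gene of the list was listed. PFK27 (ZBIST_1980) stood at -0.74 in Zbhaa1∆ and -1.17 in the parental strain, and PFK26 (ZBIST_4205) at -0.90 and -0.69 in the same order. Between the copper-treated strains their signs differed, with 1.19 for PFK26 and -1.33 for PFK27.

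At the branches of the pathway, ORFs of the pentose phosphate list were listed in the copper tables alone. ZWF1 (ZBIST_2340), which opens the oxidative branch and supplies NADPH, was higher in copper-treated Zbhaa1∆ than in copper-treated parental cells (1.29, SE limit 0.33) and higher in copper-treated than in unstressed parental cells (0.86, SE limit 0.30). SOL3 stood at 0.71 in the first of these comparisons and TAL1, the transaldolase gene, at 0.66 in the second. Of 5 glycerol ORFs, 3 were higher between the copper-treated strains, where 12.9% of annotated protein-coding ORFs were higher. These were DAK1 at 0.91, GCY1 at 0.85 and GPD1, which draws on the triose phosphates, at 0.75. The ORFs of these lists too were named only because they were listed somewhere, so that nothing is read from their counts. GUT1 and GUT2, the genes of glycerol use, were the 2 glycerol ORFs lower in acid-treated than in unstressed parental cells, at -1.26 and -1.13. Of the annotated protein-coding ORFs, 4.49% were lower there. GUT2 was also lower in acid-treated than in unstressed Zbhaa1∆ cells, at -0.99, and GCY1 was higher in copper-treated than in unstressed parental cells, at 0.74. On the side of pyruvate and acetaldehyde, ALD5 was lower between the copper-treated strains (-0.74), BDH1 was lower in copper-treated than in unstressed parental cells (-0.62), and LAT1, a pyruvate dehydrogenase subunit gene, was higher in acid-treated than in unstressed parental cells (1.12).

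Likeness of pattern was measured for the 4 members listed in 2 tables, as the Euclidean distance of the 2 log2 fold changes to ORFs listed with the same signs in those tables and in no other. The nearest ORFs are given among those with a named homologue. For TPI1 and PGK1, 5 other ORFs qualified, including each other and GPM1. The nearest to both was YHR138C (ZBIST_0507), at a distance of 0.29 from TPI1 and 0.31 from PGK1, with -0.92 in acetic acid and 1.20 in copper. GPM1 lay 0.50 from TPI1 and 0.58 from PGK1, and TPI1 and PGK1 lay 0.56 apart. For ADH3, 10 ORFs qualified, and the nearest was MDH2 (ZBIST_1042), a cytosolic malate dehydrogenase gene, at 0.18. MDH2 stood at -1.50 between the copper-treated strains and 0.64 in the parental strain in copper. GDH3, a glutamate dehydrogenase gene, and the ferric reductase gene FRE3 followed at 0.77 and 0.85. These signs are those by which the study selected the copper-induced genes that it describes as dependent on the Haa1 homologue. ADH3, MDH2, GDH3 and FRE3 are all among the genes it so names, so that their likeness in sign follows from that selection. For ADH1 (ZBIST_0943), 48 ORFs qualified, with STR3, a gene of sulphur amino acid synthesis, at 0.13, the proteasome assembly gene UMP1 at 0.14 and the proteasome subunit gene PUP3 at 0.16. These distances rest on 2 values each and carry no test, and for ADH3 and ADH1 (ZBIST_0943) the 2 tables share libraries.

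In the annotation of the IST302 assembly (GenBank version 1), the 6 ORFs lie on 5 contigs, and only ADH3 and ADH1 (ZBIST_0943) share a contig, with 44 annotated genes between them. The ORFs are 1509 bases (GLK1), 747 bases (TPI1), 1251 bases (PGK1) and 1128 bases (ADH3) long. Of the 12 genes directly beside a member, 3 were listed, each in 1 table, the strain comparison in copper, where 25.3% of all annotated protein-coding ORFs were listed, so that nothing is read from this count. These were GID7 beside GLK1 at 0.72, ADP1 beside PGK1 at 0.79, and ZBIST_0944, given no homologue name, beside ADH1 (ZBIST_0943) at 1.10. The neighbours of TPI1, ADH3 and ADH1 (ZBIST_0965) were not listed in any table.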

How the data were processed

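Per the labels, 18 libraries in 6 groups of 3 were made with the QuantSeq 3′ kit. As the methods state, the authors trimmed the reads, aligned them to the IST302 reference with STAR 2.5.2a, counted reads per gene with HTSeq, dropped genes of low CPM, scaled the libraries by TMM and tested pairs of groups in edgeR. From that fit, the log2 fold change, the average log2 CPM and the FDR (a q-value) that the authors deposited were used. The unadjusted p-values of listed ORFs, which the supplementary tables also print, were not used. The columns of the authors' own comparisons are printed here as such, and no model was refitted. The 3 libraries of a group come from independent experiments.

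Group levels were computed from the fold change and the average, read as the log2 of the arithmetic mean of both groups. The SE limit is the absolute log2 fold change divided by the normal quantile of the FDR. Both were run on data simulated under the same assumptions, which checks the arithmetic but not whether the edgeR values meet those assumptions. Homologue names, but no values, came from the supplementary tables; 94 of 1701 listed ORFs, from the other 2 tables, have no name there. Shares of listed ORFs are over the 5141 annotated protein-coding ORFs, which is more than the number that passed the filter of the authors. Of the 1701 listed ORFs, 1697 were found in the annotation. The members and lists were chosen with earlier results of these data known. The genes named are the members, the lists around the pathway, and the 3 named ORFs nearest to each member listed in 2 tables; the neighbours and the HSP26 value were added after the values were seen. Alternatives were an FDR below 0.01, a fold change above 2, an average level of at least 4 log2 CPM, and other readings of the levels. Tables were computed in Python 3.11.15 with pandas 2.3.3, numpy 2.4.6 and scipy 1.17.1, and plots drawn with matplotlib 3.10.9. No sequence was printed.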

Additional observations from a re-analysis of the deposited data

How the results depend on the processing

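The number of members listed fell with stricter thresholds, since many values lie close to those of the authors. Between the acid-treated strains the 3 members became 1 with an FDR below 0.01 (GLK1) and 1 with a fold change above 2 (TPI1). Between the copper-treated strains the 5 members became 3 under each, PGK1, TPI1 and ADH3 with the FDR and PGK1, ADH1 (ZBIST_0943) and ADH3 with the fold change. In copper-treated against unstressed parental cells the 2 members became 1 (ADH3) and 0. These thresholds only filter the deposited fold changes, so that no direction could change, and all members lay above the average level of 4 log2 CPM that was also tried. For TPI1 and PGK1, the opposite signs in acetic acid and copper lost at least 1 of the 2 calls under each stricter threshold. Of the 11 ORFs of the wider list, the 4 between the acid-treated strains became 1 and 1, the 9 between the copper-treated strains became 5 and 4, and the 3 in copper-treated parental cells became 1 and 0, in the same order of thresholds. Reading the average level as the mean of the log2 levels moved an implied level by at most 0.20 log2 CPM, less than the SE limit of the fold change in each of the 20 levels. The sums for ADH3 and ADH1 (ZBIST_0943), -0.73 and 1.81, were -0.69 and 1.84 as differences of levels. No paired analysis was possible because the deposited tables hold no values of single libraries, and for the same reason no replicate could be left out.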
